A study of Homo sapiens with 12 samples.

Results

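OCI-LY10 and OCI-HBL1 are established human cell lines of the activated B cell-like form of diffuse large B cell lymphoma (ABC-DLBCL). Their expression arrays were compared gene by gene, 4 arrays of OCI-LY10 against 4 of OCI-HBL1, out of 12 arrays in the series. The arrays were chosen by the cell line label and paired by the treatment label. A gene counts as a standing difference when it was called by the test and was at least 1 apart on the log2 scale, which is 2-fold, in the same direction in each of the 4 treatment pairs. Genes on X and Y were left out. By this rule 1215 of 12648 autosomal genes tested were standing differences, 598 higher in OCI-LY10 and 617 higher in OCI-HBL1.

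Each line had 1 array per treatment. Control cells carry no further description in the labels. CPI203, an inhibitor of the BET proteins that bind acetylated chromatin, was given at 500 nM and is labelled 24 h. IRAKi, an inhibitor of kinases that act below MYD88 and whose chemical identity is not stated, was given at 50 µM and is labelled 6 h. Combo cells had both at these doses and are labelled 24 h, as Control is, while the protocol gives 18 h for CPI203 and 6 h for IRAKi. The labels spell the second line OCI-HBL1 in one place and HBL-1 in another. The remaining 4 arrays are OCI-LY3, a further ABC-DLBCL line, under the same treatments. They entered the fit for its estimate of spread, and OCI-LY3 levels are given as a description.

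Each line stands for 1 tumour, and its 4 arrays are that line under 4 treatments, not separate cultures of 1 condition. The p-values therefore set the line difference against the spread of all 3 lines, OCI-LY3 included, around additive line and treatment terms. Nothing says how the line difference would vary over repeated cultures. The labels name no array batch, so line and any such batch cannot be told apart.

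ABC-DLBCL cells resemble B cells caught between activation by antigen and maturation into plasma cells. They depend on chronic NF-kB signalling, fed by the B cell receptor and by Toll-like receptors through MYD88, and on autocrine IL6 and IL10 acting through JAK kinases and STAT3. B cells present antigen on MHC class II molecules, whose genes are switched on by the coactivator CIITA, while class I molecules are loaded with peptides cut by the immunoproteasome and moved by the TAP transporter. Loss of either presentation path is known in this lymphoma, as a way in which tumour cells escape T cells.

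Array medians of the 8 arrays lay between 4.64 and 4.73 on the log2 scale. Arrays of different lines correlated across probe sets at 0.923 to 0.946, and arrays of 1 line at 0.965 to 0.991. Non-specific control probe sets averaged 4.00 on the OCI-LY10 IRAKi array and 3.66 to 3.79 on the other 7. Of 9 B cell markers measured, 7 in OCI-LY10 and all 9 in OCI-HBL1 were above 4.20 on all 4 arrays. That level is the 40th percentile of all values, and it serves below as the filter level. The summed B cell marker level, the log2 of the markers' linear levels added up, was 12.32 to 13.28 in OCI-LY10 and 12.96 to 13.42 in OCI-HBL1. Of 12 T cell markers, 5 were below 4.20 on all 8 arrays, and the sum was 7.61 to 7.93 in OCI-LY10 and 8.53 to 9.09 in OCI-HBL1. In OCI-HBL1, CD247 read 6.44 to 7.17 and TRBC1 7.05 to 8.15, against 4.29 to 4.60 and 4.44 to 6.11 in OCI-LY10. The other T cell markers read at most 4.92 on any array of both lines. The myeloid sum was 7.19 to 7.55 and 7.07 to 7.30. For 8 dendritic cell markers the sum was 7.27 to 8.35 in OCI-LY10 and 9.64 to 10.94 in OCI-HBL1, where CD1C and LILRA4 were high. The part of any other cell type in the differences was not tested.

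Many genes separated the lines. Limma called 6168 of 12648 genes, 48.8%, at a Benjamini-Hochberg adjusted p below 0.05, with 2903 (23.0%) higher in OCI-LY10 and 3265 (25.8%) higher in OCI-HBL1. Of these calls, 5940 kept 1 sign in all 4 pairs. Standing differences made up 9.61% of genes tested, 4.73% higher in OCI-LY10 and 4.88% higher in OCI-HBL1. The 4 arrays of one line did not overlap those of the other for 4368 genes, 34.5%, of which 2037 were higher in OCI-LY10. The median size of the difference over all genes tested was 0.36 on the log2 scale, against 2.12 for standing differences higher in OCI-LY10 and 1.94 for those higher in OCI-HBL1. A difference of at least 4, which is 16-fold, was seen in every pair for 34 genes higher in OCI-LY10 and 36 higher in OCI-HBL1. Some genes were above the filter level in one line only: 167 were above it on all 4 OCI-LY10 arrays and no OCI-HBL1 array, and 158 the reverse. A further 2687 genes were at least 1 apart in some pairs but not in all 4. The mean of OCI-LY3 was nearer OCI-LY10 for 324 of the 598 genes higher in that line, and nearer OCI-HBL1 for 296 of the 617 higher in OCI-HBL1.

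The balance of directions rests on the array scaling. RMA gives all arrays the same distribution, so an overall difference in RNA between the lines would not be seen. The 24 probe sets of the poly-A spike-in controls, RNAs added in known amounts, were 0.29 higher in OCI-LY10 (SD of the 4 pair differences 0.15). With each array scaled to these controls, the median difference of all genes was -0.30, and the share of calls higher in OCI-LY10 fell from 47.1% (2903 of 6168) to 24.1% (1434 of 5957). For standing differences that share went from 49.2% to 27.8%, with 392 genes higher in OCI-LY10 and 1016 higher in OCI-HBL1. Cyclic loess turned the balance the other way, with 3299 genes called higher in OCI-LY10 against 2902, and 671 standing against 552. Spike-in scaling shifts every mean difference by the same amount, so a difference of less than 0.29 in favour of OCI-LY10 changes sign under it.

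The 15 widest standing differences higher in OCI-LY10 come first, as a description with no shared theme tested. Values below are log2 RMA levels in the order Control, CPI203, IRAKi, Combo. VIM on chromosome 10, the intermediate filament protein vimentin, read 12.38, 12.92, 12.55 and 13.04 in OCI-LY10 and 3.65, 4.62, 3.93 and 4.42 in OCI-HBL1. Its mean difference of 8.56 (SE 0.11, limma adjusted p = 2.96e-11) was the widest of all genes tested. VIM was thus bright in one line and near background in the other under every treatment. MACROD2, an enzyme that removes ADP-ribose from proteins, read 12.17, 12.15, 12.29 and 12.29 against 4.71, 4.72, 4.66 and 4.91, a difference of 7.47 (SE 0.09). ACTG2, the gamma actin of smooth muscle, read 11.71, 11.44, 10.84 and 11.18 against 3.95, 3.82, 3.94 and 4.00. OCI-LY3 stood with OCI-LY10 for all 3 genes, at means of 12.64, 11.999 and 10.88.

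TNS3, a tensin that links integrins to actin, read 10.94, 9.40, 10.68 and 9.34 in OCI-LY10 and 4.03, 3.82, 4.14 and 4.05 in OCI-HBL1. DPP4, the surface peptidase CD26, read 9.81, 9.98, 9.70 and 10.08 against 4.12, 3.65, 3.71 and 3.83. GPR183, the oxysterol receptor that positions B cells within follicles, read 10.67, 10.49, 10.43 and 8.93 against 4.85, 3.74, 4.49 and 4.35. The Combo array was the lowest OCI-LY10 array for GPR183, DPP4 hardly varied over treatments, and the lines overlapped for neither. PLAC8 read 12.06, 11.34, 11.36 and 11.28 against 6.05, 5.58, 5.55 and 5.96, with its Control array highest. PRDX2, a peroxiredoxin that breaks down hydrogen peroxide, read 10.12, 9.98, 9.91 and 10.19 against 4.25, 4.43, 4.29 and 4.14. FBP1, an enzyme of gluconeogenesis, read 10.69, 9.80, 10.61 and 9.98 against 4.68, 4.52, 4.33 and 4.26. Those 2 genes differ in OCI-LY3, which was at 10.89 for PRDX2, near OCI-LY10, and at 4.77 for FBP1, near OCI-HBL1. The other 6 of the 15 widest were PNMA8A (6.40), the lipoprotein lipase cofactor APOC2 (6.02), the carboxypeptidase CPVL (6.02), ITM2C (5.97), the interferon-inducible nuclear protein MNDA (5.88) and the ABC transporter ABCA6 (5.65). Limma adjusted p over these 15 genes ran from 2.96e-11 for MACROD2 to 5.79e-07 for GPR183.

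HLA-DRA was the gene farthest the other way, and is described with its neighbours below. UCHL1 on chromosome 4, a deubiquitinating enzyme abundant in neurons and germinal centre B cells, read 3.95, 4.09, 3.90 and 4.31 in OCI-LY10 and 11.62, 11.80, 11.53 and 11.84 in OCI-HBL1, a difference of -7.63 (SE 0.10, limma adjusted p = 3.51e-11). AKAP12, a scaffold for protein kinase A, read 3.78, 3.83, 3.52 and 3.80 against 11.12, 11.47, 10.87 and 11.27. CDH2, the adhesion protein N-cadherin, read 4.19, 4.21, 3.89 and 4.15 against 11.35, 11.36, 11.10 and 11.27. These 3 genes were at background in OCI-LY10 and bright in OCI-HBL1 on every array. OCI-LY3 held AKAP12 at 9.74, and CDH2 and UCHL1 at 4.13 and 3.88.

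The long non-coding RNA CRNDE read 3.62, 3.61, 3.78 and 3.71 against 10.33, 10.16, 10.33 and 10.13. IL17RB, a receptor chain for interleukin 25, read 5.35, 4.72, 4.49 and 4.31 against 11.66, 11.29, 10.92 and 10.58. CRY1, a repressor in the circadian clock, read 3.41, 3.74, 3.31 and 3.56 against 8.75, 9.87, 9.73 and 9.47. All 3 were at background in OCI-LY3 or close to it, at means of 3.49, 4.51 and 3.46. LILRA4, a receptor best known from plasmacytoid dendritic cells, read 3.57, 3.47, 3.76 and 3.61 against 9.92, 8.60, 10.14 and 9.29, while CLEC4C, another marker of those cells, read at most 4.24 on any array of both lines. BNIP3, a mitophagy receptor of the BCL2 family, differed by -5.80 and the ornithine aminotransferase OAT by -5.73, and OCI-LY3 was near OCI-HBL1 for both (9.17 and 9.72). MEST, expressed from the paternal allele, differed by -5.55. The remaining 5 of the 15 widest, HLA-DRA, HLA-DRB1, PSMB8, BZW2 and ZNF91, lay among neighbours that differed too.

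**Figure D1:**
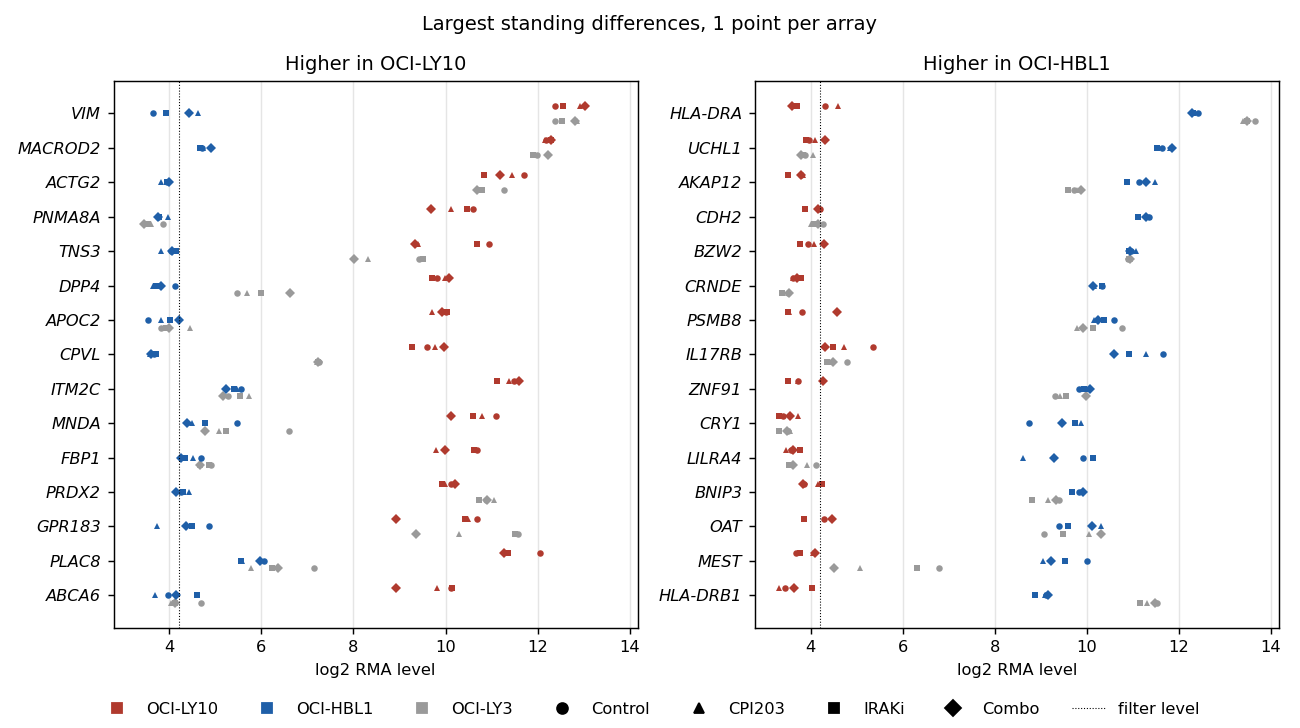
Log2 RMA level (x axis) of the 15 widest standing differences in each direction, with 1 point per array, colour for the line and shape for the treatment; the dotted line is the filter level of 4.20. Points of OCI-LY10 and OCI-HBL1 do not overlap for any of these genes, and OCI-LY3 lies with either line depending on the gene.

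Antigen presentation genes differed together within one stretch of chromosome 6. HLA-DRA, the alpha chain of the HLA-DR class II molecule, read 4.30, 4.60, 3.71 and 3.61 in OCI-LY10 and 12.40, 12.30, 12.30 and 12.29 in OCI-HBL1. The difference was -8.27 (SE 0.17, limma adjusted p = 7.61e-10). Its partner chain HLA-DRB1 read 3.44, 3.32, 4.03 and 3.64 against 9.11, 9.09, 8.86 and 9.16. HLA-DQA1, the alpha chain of HLA-DQ, read 4.41, 5.03, 4.85 and 5.27 against 9.16, 8.98, 8.74 and 8.92. HLA-DQB1, its beta chain, read 3.68, 3.39, 4.42 and 3.73 against 8.63, 7.74, 7.68 and 7.71. No array of OCI-LY10 reached the lowest OCI-HBL1 array for any of these class II genes.

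In the order of chromosome 6, the next genes carry class I functions and were as low in OCI-LY10. TAP2 and TAP1, which form the peptide transporter, differed by -4.21 and -4.48. PSMB8 and PSMB9, the catalytic subunits that turn a proteasome into an immunoproteasome, differed by -6.48 and -4.996. PSMB8 read 3.81, 3.52, 3.51 and 4.58 in OCI-LY10 and 10.59, 10.15, 10.37 and 10.23 in OCI-HBL1. TAP1 read 3.62, 3.28, 3.66 and 3.31 against 8.25, 7.95, 7.83 and 7.76. OCI-LY10 was within 1 of the filter level on every array for these 4 genes, and OCI-LY3 was high, at 6.66, 9.60, 10.15 and 10.16.

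The genes past PSMB9 did not follow. Before HLA-DRA, NOTCH4 read 3.95 to 4.29 in OCI-LY10 and 4.11 to 4.71 in OCI-HBL1, near the filter level in both. TSBP1 and BTNL2, which lie between NOTCH4 and HLA-DRA, were below the filter. Where the pattern starts on that side therefore cannot be seen. After PSMB9, HLA-DMB and HLA-DMA, whose product loads class II molecules, were bright in both lines, at means of 9.62 and 10.36 in OCI-LY10 and 8.86 and 10.03 in OCI-HBL1. Both were called higher in OCI-LY10, and both calls were lost with spike-in scaling (differences of 0.47 and 0.03). The call of HLA-DMB was also lost with no treatment block (adjusted p = 0.201 in limma), and that of HLA-DMA without the OCI-HBL1 IRAKi array (0.0563) or without the Control, CPI203 or IRAKi arrays of all lines (0.0660 to 0.0802). BRD2, a BET protein encoded there, read 9.93, 10.60, 10.07 and 10.93 against 9.89, 10.68, 9.93 and 10.82, and its difference of 0.05 was not called (adjusted p = 0.675). HLA-DOA, HLA-DPA1 and HLA-DPB1 were higher in OCI-LY10, by 1.75, 2.14 and 2.21. HLA-DPA1 read 13.52, 13.40, 13.45 and 13.36 in OCI-LY10 and 11.47, 11.17, 11.14 and 11.38 in OCI-HBL1. Thus 8 of the 21 genes measured from NOTCH4 to HLA-DPB1 were standing differences higher in OCI-HBL1, all 8 between HLA-DRA and PSMB9. At the far end of this stretch, 3 were standing differences the other way. Over all genes tested these shares were 4.88% and 4.73%. TSBP1, BTNL2, HLA-DQA2 and PPP1R2P1 were below the filter and not tested, so they could not be standing. HLA-DRB5, HLA-DQA2 and HLA-DOB, which lie among the 8 genes, read at most 5.05 on any array of both lines. Class II probe sets can bind several alleles and related genes, and not all showed the difference: 2 of 8 did for HLA-DQB1, and 1 of 3 HLA-DRA probe sets was below the filter level. All 4 TAP2 probe sets and both TAP1 probe sets were lower in OCI-LY10 by at least 1. The stretch was picked for description after its values were seen, and no test was made of it.

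**Figure D2:**
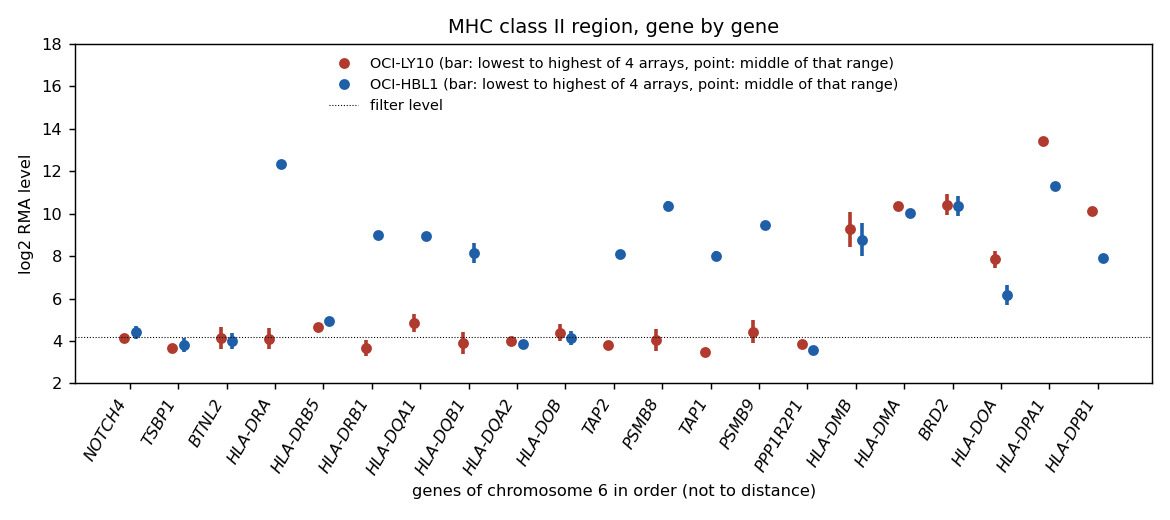
Log2 RMA level (y axis) of 21 genes of chromosome 6 in gene order from NOTCH4 to HLA-DPB1, not to distance; bars run from the lowest to the highest of 4 arrays per line and points mark the middle of that range. OCI-LY10 lies near the filter level of 4.20 from HLA-DRA to PSMB9, apart from OCI-HBL1 at 8 genes, and both lines lie well above that level from HLA-DMB on.

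Promoter sequence is shown for 4 of these genes to set a class II gene lower in OCI-LY10 beside one that was higher, and the shared start region of TAP1 and PSMB9. They are RefSeq windows on GRCh38.p14 from 250 bases before to 50 bases after the gene start, on the gene's strand. In the class II pair capitals mark CCAAT or its reverse complement ATTGG, the letters bound by NF-Y, a factor that works with CIITA. In the other pair capitals mark GGGCGG or CCGCCC, the GC box, and GGGNNTTTCC or its reverse complement, a form of the NF-kB site.
HLA-DRB1, lower in OCI-LY10, chr6:32589799-32590098, minus strand: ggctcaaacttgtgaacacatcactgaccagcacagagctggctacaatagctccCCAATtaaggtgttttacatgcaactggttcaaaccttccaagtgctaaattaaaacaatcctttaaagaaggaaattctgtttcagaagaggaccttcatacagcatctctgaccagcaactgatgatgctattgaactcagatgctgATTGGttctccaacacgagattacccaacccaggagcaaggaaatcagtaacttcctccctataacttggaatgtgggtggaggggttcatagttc
HLA-DPB1, higher in OCI-LY10, chr6:33075740-33076039, plus strand: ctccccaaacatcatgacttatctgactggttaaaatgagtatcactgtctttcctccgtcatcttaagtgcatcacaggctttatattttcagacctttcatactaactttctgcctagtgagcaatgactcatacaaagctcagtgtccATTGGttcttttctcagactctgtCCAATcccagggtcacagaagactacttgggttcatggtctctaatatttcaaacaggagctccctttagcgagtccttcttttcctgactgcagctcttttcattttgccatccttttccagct
TAP1, lower in OCI-LY10, chr6:32853655-32853954, minus strand: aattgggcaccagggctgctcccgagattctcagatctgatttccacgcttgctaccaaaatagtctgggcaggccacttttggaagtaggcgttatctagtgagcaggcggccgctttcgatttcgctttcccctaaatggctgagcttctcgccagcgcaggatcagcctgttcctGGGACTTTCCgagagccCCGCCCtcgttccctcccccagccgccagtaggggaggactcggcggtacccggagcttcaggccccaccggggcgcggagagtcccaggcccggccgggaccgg
PSMB9, lower in OCI-LY10, chr6:32853942-32854241, plus strand: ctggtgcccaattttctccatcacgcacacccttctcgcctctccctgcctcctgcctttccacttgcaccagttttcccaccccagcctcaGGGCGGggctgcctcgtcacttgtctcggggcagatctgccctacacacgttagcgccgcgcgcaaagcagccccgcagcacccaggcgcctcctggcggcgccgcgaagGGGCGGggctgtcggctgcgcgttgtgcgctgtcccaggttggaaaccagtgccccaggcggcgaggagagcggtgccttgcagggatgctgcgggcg

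HLA-DRB1 and HLA-DPB1 held 2 CCAAT matches each, counting both strands, and so did not differ by that count. Such a match was present in 35.7% of 27305 promoter windows of this length. The TAP1 and PSMB9 windows share 13 bases, as the genes start back to back on opposite strands, and both were lower in OCI-LY10. A GC box was present in 44.6% of all windows and the NF-kB form in 1.92%. A match describes letters only, and binding was not measured.

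The wider antigen presentation genes went both ways. Of 19 class II genes tested, 15 were called and 10 were standing differences (52.6%, against 9.61% of all genes tested), 5 in each direction. CIITA, the coactivator of the class II genes, was higher in OCI-LY10, 8.93, 8.74, 8.46 and 7.72 against 6.67, 6.75, 6.70 and 6.14 (difference 1.89, adjusted p = 1.22e-06). CD74, the invariant chain, was also higher there by 1.36, and RFXAP, a subunit of the factor that recruits CIITA, was lower (-2.09), both chosen after their values were seen. Of 21 class I and processing genes, 10 were standing differences (47.6%), 4 higher in OCI-LY10. HLA-B read 9.54, 9.38, 9.74 and 9.19 against 12.61, 12.67, 12.75 and 12.76, and HLA-C differed by -3.49. For each, 2 of 3 probe sets showed a difference of at least 1. Those probe sets end in x_at, so their probes can be shared between transcripts. The remaining HLA-C probe set read 4.70 in OCI-LY10 and 4.85 in OCI-HBL1. HLA-E and HLA-F, the less variable class I genes, were higher in OCI-LY10 by 1.90 and 3.51. All 6 HLA-E probe sets but only 4 of 10 for HLA-F differed by at least 1. B2M, the light chain shared by class I molecules, read 13.58, 13.57, 13.54 and 13.58 against 13.13, 13.22, 13.15 and 13.15, a called difference of 0.40 that was lost with spike-in scaling (0.11). ERAP2, which trims peptides, was higher in OCI-LY10 by 3.86. ERAP1, of the same kind, was higher by 1.81 in its brightest probe set. The other 4 of its 5 probe sets did not share a direction, at 0.23, -0.89, -0.56 and -0.40. With the mean of its probe sets the difference was 0.04 and was not called.

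Neighbouring genes differed in the same direction at other places, which were also picked after the values were seen. On chromosome 7, TMEM106B read 3.51, 3.73, 3.59 and 3.46 in OCI-LY10 and 7.73, 7.71, 8.13 and 8.06 in OCI-HBL1, and ANKMY2 read 3.98, 3.67, 4.16 and 3.96 against 7.91, 8.25, 8.01 and 7.91. BZW2, a regulator of translation initiation near them, read 3.95, 4.07, 3.77 and 4.29 against 10.96, 11.06, 10.91 and 10.95 (difference -6.95, adjusted p = 6.14e-11), in all 6 of its probe sets. PHF14, TSPAN13 and SNX13 along the same stretch differed by -3.29, -1.61 and -2.05, and all but TSPAN13 were standing differences. Only TMEM106B, ANKMY2 and BZW2 formed an unbroken run of standing differences among the tested genes. OCI-LY3 held TMEM106B, ANKMY2 and BZW2 at 7.70, 7.38 and 10.92, near OCI-HBL1.

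Further along chromosome 7, CAV2, CAV1 and MET were higher in OCI-LY10, by 1.88, 4.01 and 4.99. CAV1 and CAV2 encode the caveolins of membrane pits, and MET the receptor for hepatocyte growth factor. MET read 9.61, 9.63, 9.60 and 9.27 in OCI-LY10 and 4.81, 4.57, 4.49 and 4.29 in OCI-HBL1, with OCI-LY3 at 9.31, in 2 of its 6 probe sets. On chromosome 12, RHOF, SETD1B, PSMD9 and CFAP251 were higher in OCI-LY10, by 1.63, 3.52, 4.36 and 4.18, next to TMEM120B, which was lower (-2.07). PSMD9, a proteasome assembly chaperone, read 8.17, 8.22, 8.03 and 8.11 against 4.04, 3.89, 3.55 and 3.62. One of 2 PSMD9 probe sets and 1 of 2 CFAP251 probe sets showed it. The interferon-induced OAS1, OAS3 and OAS2, also neighbours on chromosome 12, were higher in OCI-LY10 by 3.78, 1.84 and 2.61.

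By a rule of at least 3 neighbouring tested genes that were standing differences in 1 direction, 35 runs were found, 14 higher in OCI-LY10 and 21 higher in OCI-HBL1, with 121 genes in all. The longest held 5 genes, and 4 runs had that length. On chromosome 4, DDX60, DDX60L, PALLD, CBR4 and SH3RF1 were higher in OCI-LY10 by 1.78, 2.54, 3.28, 1.16 and 1.85. The first pair are helicase-like proteins of the interferon response and PALLD is an actin-binding protein. On chromosome 7, VPS41, YAE1, RALA, CDK13 and MPLKIP were higher in OCI-LY10 by 1.35, 2.50, 2.10, 1.69 and 1.84. On chromosome 18, PIEZO2, CHMP1B, MPPE1, IMPA2 and TUBB6 were higher in OCI-LY10 by 5.09, 1.89, 1.85, 3.36 and 2.41. PIEZO2, a mechanically gated ion channel, was at background in both other lines. On chromosome 19, ZNF577, ZNF649, ZNF613, ZNF350 and ZNF615 were higher in OCI-HBL1, with differences of -3.58, -2.34, -2.58, -1.24 and -3.05.

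Zinc finger genes of chromosome 19 were lower in OCI-LY10 as a group. This chromosome carries clusters of KRAB zinc finger genes, whose proteins repress retrotransposons and other genes. Of 206 tested genes there named ZNF or ZFP, 123 were called higher in OCI-HBL1 and 20 higher in OCI-LY10, while over all genes tested 25.8% and 23.0% were. On other autosomes 47 and 51 of 208 such genes were called, and of the other 776 tested genes of chromosome 19, 176 and 133. Standing differences were 66 (32.0%) and 0. The median difference was -0.74, against -0.0024 for the zinc finger genes of other autosomes, where 7 and 7 genes were standing. Of the other genes of chromosome 19, 24 were standing higher in OCI-HBL1 and 21 higher in OCI-LY10. The zinc finger group was picked after its values were seen, and no test was made of it. The median level of the 206 genes was 4.82 in OCI-LY10, 6.57 in OCI-HBL1 and 6.23 in OCI-LY3. OCI-LY3 was nearer OCI-HBL1 for 46 of the 66.

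ZNF91, a repressor of primate retrotransposons, read 3.73, 3.72, 3.50 and 4.26 in OCI-LY10 and 9.84, 10.01, 9.93 and 10.08 in OCI-HBL1, a difference of -6.16 (SE 0.12, adjusted p = 6.11e-10). ZNF43, in the same cluster, read 4.19, 4.29, 4.20 and 4.18 against 6.09, 6.70, 7.22 and 7.13. Both were near the filter level in OCI-LY10 on every array. The probe sets read for ZNF91 and ZNF43 end in x_at, so their probes can be shared between transcripts. The other ZNF91 probe set, which does not end so, was also lower in OCI-LY10, but by far less (-1.12). For ZNF43 the remaining probe sets differed by -2.21 and -0.86, the latter ending in x_at and below the filter level. The promoter windows of ZNF91 and ZNF43 are shown because these genes lie in the cluster described above, with CCAAT or ATTGG in capitals.
ZNF91, chr19:23395422-23395721, minus strand: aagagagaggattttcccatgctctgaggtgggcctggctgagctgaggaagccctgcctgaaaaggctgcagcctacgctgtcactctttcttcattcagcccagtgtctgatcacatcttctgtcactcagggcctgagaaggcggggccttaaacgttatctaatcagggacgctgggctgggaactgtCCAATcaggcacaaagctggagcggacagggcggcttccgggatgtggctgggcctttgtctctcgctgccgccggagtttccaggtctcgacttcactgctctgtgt
ZNF43, chr19:21836133-21836432, minus strand: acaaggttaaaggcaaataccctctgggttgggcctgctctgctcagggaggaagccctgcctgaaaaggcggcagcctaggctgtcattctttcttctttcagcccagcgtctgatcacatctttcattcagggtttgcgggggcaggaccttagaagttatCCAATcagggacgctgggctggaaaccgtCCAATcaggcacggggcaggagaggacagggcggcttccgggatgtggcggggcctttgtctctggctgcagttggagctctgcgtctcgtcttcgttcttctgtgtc
With only small shifts of these windows tried, the best match without gaps was 56.7% of bases. Alignment with gaps was not tried. A CCAAT match was present in 51.4% of 183 windows of chromosome 19 zinc finger genes, against 36.7% of 10283 tested genes with a window.

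In windows of 25 neighbouring tested genes the median difference ranged from -2.05 to 1.504 over 12120 overlapping windows. The lowest ran from ZNF14 to ZNF254 on chromosome 19, where all 25 genes are zinc finger genes, 22 were called higher in OCI-HBL1 and 13 were standing. Its median was between -2.14 and -1.86 in the 4 treatment pairs. The window from SIGLEC14 to ZNF28 reached -1.73 and that from CAPNS1 to ZNF573 -1.38, both on chromosome 19 and also mostly zinc finger genes (22 and 24 of 25). From MED20 to CUL9 on chromosome 6 the median was -1.63 with 15 standing genes, and no zinc finger gene. The highest window ran from DPY19L1 to MRPS24 on chromosome 7, at 1.504 with 13 standing genes. A window from MYOM1 to PSMG2 on chromosome 18 was at 1.26, with 12. Chromosomes 6, 18 and 7 had the highest shares of standing differences, 21.0%, 17.1% and 16.2%, against 9.61% over all autosomes. Copy number was not measured here.

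**Figure D3:**
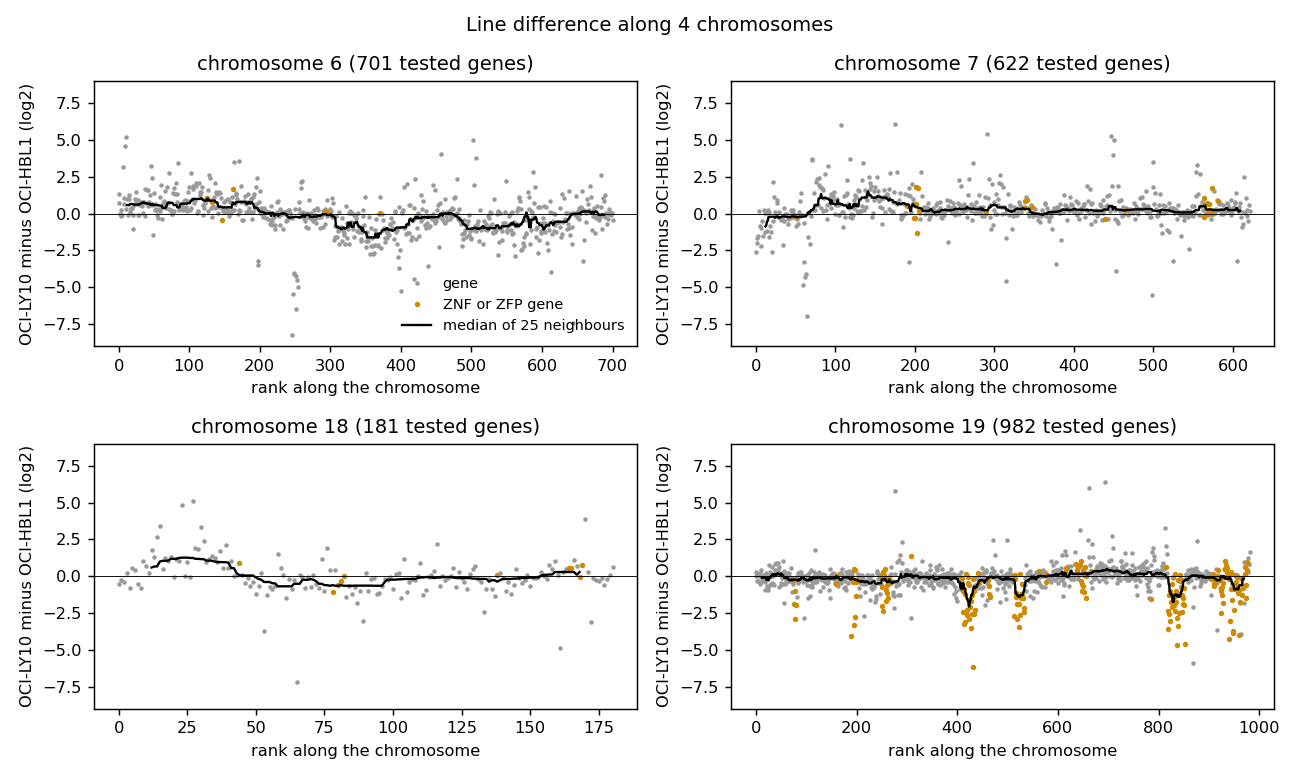
OCI-LY10 minus OCI-HBL1 difference in log2 level (y axis) for every tested gene in rank order along 4 chromosomes (x axis), with zinc finger genes coloured and the median of 25 neighbours as a line. The median falls to -2.05 among zinc finger genes of chromosome 19 and rises to 1.504 on chromosome 7.

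The gene lists were described by counts. MHC class II, MHC class I, imprinted, B cell receptor, surface antigen, trafficking and interferon genes had the largest shares of standing differences. These ran from 35.7% to 52.6%, against 9.61% over all genes tested. Immunoglobulin genes had none among 8, and epigenetic regulators mutated in lymphoma had 2 of 31 (6.45%). Both of these lists are small. No list, high or low, was tested against the share over all genes. The lists and their members were chosen with earlier results of these data known, so their shares are a description only.

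**Figure D4:**
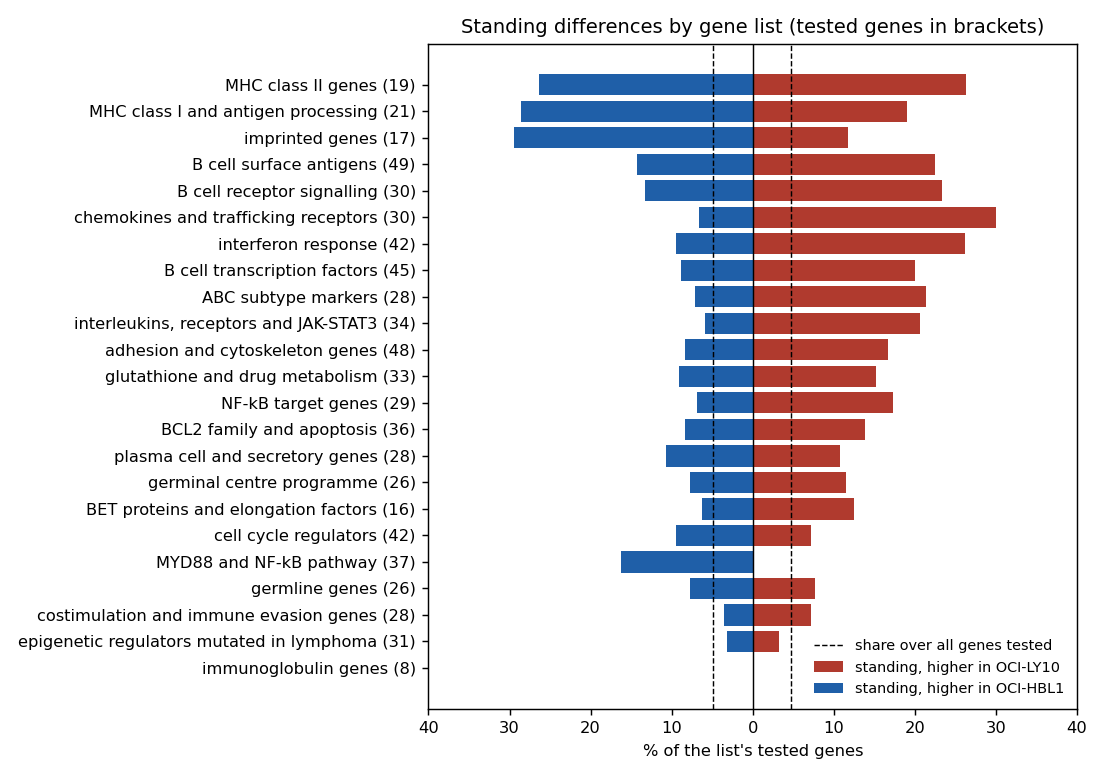
Share of each list's tested genes (x axis, %) that were standing differences, to the right for genes higher in OCI-LY10 and to the left for genes higher in OCI-HBL1; dashed lines mark 4.73% and 4.88%, the shares over all genes tested. Both MHC lists extend far on both sides, and the MYD88 and NF-kB pathway list extends to the left only.

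The pathway that feeds NF-kB had standing differences in 1 direction only. Of 37 MYD88 and NF-kB pathway genes tested, 10 were called higher in OCI-LY10, 13 higher in OCI-HBL1 and 14 were not called, which makes 62.2% called against 48.8% over all genes tested. Standing differences numbered 0 and 6 (16.2% in all, against 9.61%), the latter being IKBKB, CHUK, TLR10, TLR4, MAP3K7 and NFKBIE. IKBKB, a catalytic subunit of the IkB kinase, read 6.23, 5.61, 6.17 and 6.00 against 7.82, 7.55, 8.29 and 7.37. CHUK, the other catalytic subunit, read 6.87, 6.57, 6.38 and 6.61 against 8.39, 8.48, 8.32 and 8.29. Both were lower in OCI-LY10 on every array, with differences of -1.76 and -1.76 (adjusted p = 7.09e-06 and 5.36e-07). For IKBKB, 4 of 11 probe sets showed a difference of at least 1 and 7 did not. TLR10 and TLR4, Toll-like receptors, differed by -2.62 and -1.79. MYD88 itself read 9.67, 9.28, 9.63 and 8.64 against 9.27, 8.36, 8.76 and 7.97, a called difference of 0.71 that was below 1 in every pair. Its call was lost with no treatment block (adjusted p = 0.122 in limma) and with spike-in scaling (0.0642). Called higher in OCI-LY10, with none standing, were BCL3 (2.47) and NFKBIZ (1.23), nuclear IkB-like cofactors, TRAF3 (1.46), a brake on the alternative pathway, and the subunit NFKB1 (0.96). REL, NFKB2, IRAK3 and TNFAIP3 were not called, with differences of 0.08, -0.05, -0.13 and -0.66 and adjusted p of 0.778, 0.826, 0.787 and 0.0649. TNFAIP3, the ubiquitin-editing inhibitor A20, read 9.24, 9.60, 8.63 and 9.48 against 10.50, 10.23, 9.42 and 9.42, and its lines overlapped. It was called lower in OCI-LY10 under 7 of the alternatives, with differences of -0.95 to -0.66, among them the mean of its probe sets (-0.91, adjusted p = 0.0129 in limma), spike-in scaling (-0.95, 0.00172) and leaving out the Combo array of OCI-LY10 (-0.83, 0.0388) or of OCI-HBL1 (-0.84, 0.0384). IRAK3 was called lower without the OCI-LY10 Combo array (-0.59, 0.0228).

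Of 29 NF-kB target genes, 10 were called higher in OCI-LY10, 5 of them standing, and 5 higher in OCI-HBL1, 2 of them standing. The share called, 51.7%, was near the 48.8% over all genes tested, and the standing share was 24.1% against 9.61%. The chemokine CXCL10 read 12.07, 9.35, 9.40 and 5.41 against 4.28, 4.08, 3.97 and 4.32. Its difference of 4.90 varied widely with treatment, since OCI-LY10 itself ranged from 5.41 to 12.07. BCL2A1, an anti-apoptotic target, was higher by 1.86. The chemokine CCL22 was higher in OCI-HBL1, 6.90, 5.36, 5.86 and 5.53 against 10.65, 9.80, 9.85 and 10.21, and so was STAT5A, 5.21, 4.95, 4.78 and 4.77 against 8.88, 8.42, 9.33 and 8.27.

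Of 34 interleukin, receptor and JAK-STAT3 genes, 18 were called higher in OCI-LY10 and 6 higher in OCI-HBL1 (70.6% in all, against 48.8% over all genes tested), with 7 and 2 standing (26.5%, against 9.61%). STAT3 read 11.45, 11.37, 11.90 and 11.23 in OCI-LY10 and 9.48, 9.75, 9.41 and 9.89 in OCI-HBL1, a difference of 1.85 (SE 0.20, adjusted p = 3.95e-05), seen in all 3 of its probe sets. IL10, the cytokine that signals through STAT3, read 8.82, 8.32, 9.13 and 9.42 against 4.67, 4.08, 4.81 and 3.88. SOCS1, a feedback inhibitor of JAK kinases, read 7.45, 7.13, 7.75 and 7.78 against 3.49, 4.03, 4.23 and 4.54. IL6ST, the shared receptor chain gp130, was higher in OCI-LY10 by 1.97, and JAK1, chosen after its values were seen, by 1.86. For IL6 the arrays read 5.71, 4.26, 4.09 and 4.07 against 4.20, 3.71, 3.97 and 3.96, which was not called (adjusted p = 0.376). PIM1, a kinase induced by STAT signalling, was higher in OCI-HBL1, with a difference of -1.87.

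B cell receptor genes also went both ways. Of 30, 14 were called higher in OCI-LY10 and 9 higher in OCI-HBL1 (76.7% in all, against 48.8% over all genes tested), with 7 and 4 standing (36.7%, against 9.61%). CD79A, a signalling chain of the receptor, read 9.41, 9.19, 9.28 and 9.32 against 10.35, 10.71, 10.54 and 10.91. CD79B, its partner, read 10.65, 9.90, 9.39 and 8.52 against 11.32, 11.15, 10.95 and 10.26. They were called lower in OCI-LY10, with differences of -1.33 and -1.30, and fell short of 1 in at least 1 pair. Lower in OCI-LY10 were the kinases FYN (-2.85), PRKCB (-2.03) and BLK (-1.51) and the phospholipase PLCG2 (-1.55). FYN read 3.50, 4.33, 3.57 and 5.18 against 6.39, 7.42, 6.55 and 7.61. Higher in OCI-LY10 were FCRL5, an Fc receptor-like protein, by 3.13, the adaptor BANK1 by 2.93, PTPN6, the phosphatase SHP1, by 2.86, and RASGRP1, which activates RAS, by 2.61. OCI-LY3 held PRKCB at 4.15, below both lines. Of 8 immunoglobulin genes tested 2 were called, with 0 standing. IGHM, the heavy chain of IgM, read 13.46, 13.64, 13.58 and 13.47 against 13.89, 14.05, 14.08 and 14.06 and was not called (adjusted p = 0.377), while OCI-LY3 was at 8.12. The lines did not overlap for IGHM, and it was called lower in OCI-LY10 when only the 8 arrays of both lines were fitted (-0.49, adjusted p = 0.00771 in limma). JCHAIN, which joins IgM units, was higher in OCI-LY10 by 0.88.

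Among regulators of B cell identity, PRDM1 differed most. This repressor, known as BLIMP1, drives plasma cell fate. It read 11.06, 10.79, 10.74 and 10.55 in OCI-LY10 and 5.63, 5.62, 5.98 and 5.85 in OCI-HBL1, a difference of 5.02 (SE 0.17, adjusted p = 1.9e-08), in all 5 probe sets, with OCI-LY3 at 10.68. Of 45 B cell transcription factors, 9 were standing higher in OCI-LY10 and 4 higher in OCI-HBL1 (28.9% in all, against 9.61% over all genes tested). ZEB2, TBX21 and SOX4 were higher in OCI-LY10, by 3.27, 2.92 and 2.73. ZEB2 and TBX21, the factor T-bet, mark a class of memory B cells. BACH2, which opposes PRDM1, was higher in OCI-HBL1, 6.43, 6.57, 7.85 and 7.65 against 9.25, 8.54, 9.72 and 9.75, as was the calcium-regulated NFATC1, 7.66, 8.31, 8.60 and 8.73 against 11.63, 11.93, 10.90 and 11.21. IRF4 and BCL6 differed by 0.69 and 0.39, and both were called. Both calls were lost with spike-in scaling (differences of 0.40 and 0.09) and on leaving out any 1 of 5 of the 8 arrays of both lines. For IRF4 these were the control and IRAKi arrays of both lines and the OCI-LY10 Combo array (adjusted p = 0.0654 to 0.0868 in limma). For BCL6 they were the IRAKi and Combo arrays of both lines and the OCI-HBL1 control array (0.0551 to 0.0763). With the mean of its probe sets IRF4 differed by 0.21 and was not called. FOXP1 differed by 0.17 and was not called (adjusted p = 0.186), but was with trend and robust estimation (0.0493 in limma).

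Among 28 plasma cell and secretory genes, 3 were standing in each direction (21.4% in all, against 9.61% over all genes tested). XBP1, which enlarges the secretory pathway, was higher in OCI-HBL1 (-1.15, short of 1 in at least 1 pair), as were SLAMF7 (-3.52), CD38 (-2.58) and the BAFF and APRIL receptor TNFRSF17 (-2.18). With no treatment block the call of TNFRSF17 was lost (adjusted p = 0.151 in limma). ELL2, an elongation factor used in antibody secretion, was higher in OCI-LY10 by 2.78. PRDM1 and XBP1 thus differed in opposite directions. Of 26 germinal centre genes, 3 and 2 were standing (19.2%). TCL1A, a coactivator of AKT, read 11.17, 9.37, 9.70 and 9.11 against 4.90, 5.47, 5.02 and 5.13, and GCSAM was higher in OCI-LY10 by 2.88. RGS13 was higher in OCI-HBL1 (-1.65). ABC subtype markers, 28 tested, were standing in 6 and 2 cases (28.6%). The ion channels P2RX5 and KCNA3 were higher in OCI-LY10 by 3.68 and 2.93. ENTPD1, the ectoenzyme CD39, read 9.52, 7.91, 8.02 and 7.69 against 9.63, 8.59, 8.62 and 8.42, a called difference of -0.53 with overlapping lines and a call lost with no treatment block (adjusted p = 0.391 in limma) and with treatment as a random block (0.1202). CCND2 was higher in OCI-HBL1, 11.56, 10.11, 10.88 and 9.58 against 13.05, 12.98, 13.08 and 12.74.

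Of 49 B cell surface antigens, 11 were standing higher in OCI-LY10 and 7 higher in OCI-HBL1 (36.7% in all, against 9.61% over all genes tested). CD180, a Toll-like receptor homologue, read 10.29, 8.48, 9.63 and 7.90 against 6.05, 4.63, 4.91 and 4.50. CD24 was higher in OCI-LY10 by 3.75. MS4A1, the CD20 target of rituximab, read 12.50, 11.66, 12.63 and 11.76 against 12.43, 11.67, 12.29 and 12.01. It was not called (difference 0.04, adjusted p = 0.797), and the lines overlapped. CD58, the ligand by which T and NK cells engage targets through CD2, read 8.46, 7.92, 7.93 and 6.80 in OCI-LY10 and 4.14, 3.76, 3.46 and 3.66 in OCI-HBL1, with OCI-LY3 at 3.78. CD274, the checkpoint ligand PD-L1, was higher in OCI-LY10 by 2.29, and CD86, a ligand of CD28, was called higher in OCI-HBL1 (-1.30, just short of 1 in the IRAKi pair). Costimulation and evasion genes had 3 standing differences among 28 (10.7%), near the 9.61% over all genes tested. CD58 was thus at background in OCI-HBL1, while HLA-DRA and TAP1 were so in OCI-LY10.

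Of 30 chemokine and trafficking genes, 9 were standing higher in OCI-LY10 and 2 higher in OCI-HBL1 (36.7% in all, against 9.61% over all genes tested). CXCR4, the homing receptor for CXCL12, read 12.35, 12.12, 12.39 and 11.77 against 7.91, 8.38, 8.07 and 8.32. EPHA4 was higher in OCI-LY10 by 3.24, and the integrin chain ITGB2 higher in OCI-HBL1 (-2.48). Of 42 interferon response genes, 11 and 4 were standing (35.7%). IFITM1, an inhibitor of virus entry, read 9.35, 8.26, 8.99 and 8.69 against 4.89, 4.52, 4.40 and 4.88. IRF1 was higher in OCI-LY10 by 2.89 and SAMD9L by 2.62, while IFI35 (-2.43) and IFI44L (-2.24) were higher in OCI-HBL1. PSMB9 and TAP1, in the chromosome 6 stretch described above, were lower in OCI-LY10, while IRF1 was higher. A role of interferon in these differences was not tested. Of 48 adhesion and cytoskeleton genes, 8 and 4 were standing, a larger share than the 9.61% over all genes tested. The share called was 54.2%, against 48.8% over all genes tested. The calcium-binding S100A4 and S100A6 were higher in OCI-LY10 by 4.23 and 3.03, and the tropomyosin TPM2 higher in OCI-HBL1 (-4.50).

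Of the apoptosis genes tested, 8 of 36 were standing differences (22.2%), and of the cell cycle genes 7 of 42 (16.7%), against 9.61% over all genes tested. BBC3, the BH3-only protein PUMA, was higher in OCI-LY10, 8.77, 8.23, 8.90 and 8.07 against 5.55, 6.12, 5.62 and 5.76. BCL2 read 10.68, 10.93, 10.67 and 10.48 against 10.47, 10.50, 10.75 and 10.57 and was not called (adjusted p = 0.524), and MCL1 was higher in OCI-LY10 by 1.01. GADD45A and BTG1, which restrain growth, were higher in OCI-LY10 by 3.53 and 1.70, and CDKN1A, the CDK inhibitor p21, was higher in OCI-HBL1 (-1.62). MTAP, a neighbour of the CDKN2A locus on chromosome 9, read 7.96, 7.46, 8.10 and 6.94 against 5.57, 5.46, 5.68 and 5.58. CDKN2A was low in both, at means of 4.60 and 4.99. MYC was called higher in OCI-HBL1 (-0.86), a call lost with no treatment block (adjusted p = 0.169 in limma). Of 16 BET and elongation genes, 2 and 1 were standing (18.8%). BRD3 and HEXIM1 differed by 0.47 and 0.27, and HEXIM1 was not called (adjusted p = 0.225). With the mean of its probe sets HEXIM1 was called (0.51, adjusted p = 0.0388 in limma), and with spike-in scaling the call of BRD3 was lost (0.17, 0.465).

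Imprinted genes were called in 14 of 17 cases (82.4%, against 48.8% over all genes tested). Standing differences were 2 higher in OCI-LY10 and 5 higher in OCI-HBL1 (41.2% of those tested, against 9.61%). PEG10, a paternally expressed gene of retroviral origin, read 5.34, 4.76, 4.77 and 4.77 against 9.05, 10.12, 8.88 and 9.89. NAP1L5 was higher in OCI-LY10, 6.81, 7.25, 6.91 and 6.65 against 3.66, 3.85, 3.89 and 3.92. Of 26 germline genes, 3 were called higher in OCI-LY10 and 4 higher in OCI-HBL1 (26.9% in all, against 48.8%). The other 19 were not called, and 2 were standing in each direction (15.4%, against 9.61%). TEX15 and SOHLH1, active in male germ cells, were higher in OCI-HBL1, by differences of -4.19 and -4.14. The tumour antigen PRAME was higher in OCI-LY10 by 2.52. OCI-LY3 was at background for TEX15, SOHLH1 and PRAME (3.42, 3.87 and 3.98). Of 33 glutathione and drug metabolism genes, 5 and 3 were standing (24.2%, against 9.61%). GSTP1, which couples glutathione to electrophiles, read 11.77, 11.91, 11.48 and 11.91 against 8.33, 8.45, 8.55 and 8.93. ALDH2 was higher in OCI-LY10 by 4.17 and HMOX1 by 2.69.

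The line difference was also tested for a change with CPI203. The gap, OCI-LY10 minus OCI-HBL1, was compared between arrays with CPI203 (CPI203 and Combo) and without it (Control and IRAKi) as an interaction term in limma over 12 arrays. The test called 14 of 12648 genes (0.111%), 5 with a positive and 9 with a negative change, and 1104 genes had an unadjusted p below 0.05. MPEG1, a pore-forming protein of phagocytes, had a gap of 2.20 without CPI203 and 5.35 with it, a change of 3.15 (SE 0.33, adjusted p = 0.0436). It read 10.81, 11.71, 10.35 and 11.31 in OCI-LY10 and 8.69, 6.55, 8.07 and 5.77 in OCI-HBL1, and the OCI-HBL1 arrays with CPI203 were the lowest of all. LILRA6 and ADARB1, an RNA-editing enzyme, had gaps of -3.55 and -3.12 without CPI203 and -0.57 and -0.46 with it. EFR3B and CCDC144NL changed by 1.996 and 2.08.

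The gap of MGAT3, a glycosyltransferase, went from 4.34 to 0.61 (adjusted p = 0.0436), with 8.92, 4.93, 7.64 and 4.33 in OCI-LY10 and 3.95, 3.74, 3.94 and 4.28 in OCI-HBL1. FRMD4A went from 4.21 to 0.79, and TRAF3IP3 from 4.33 to 1.39. UGT2B17 and UGT2B15, enzymes that attach glucuronic acid to steroids and share sequence, went from 4.89 and 5.06 to 1.74 and 2.12, and their probe sets may not tell them apart. HPDL and EPB41L4A changed by -2.92 and -1.97. PTGS2, the cyclooxygenase COX2, and FTCD changed by -2.11 and -2.38. PTGS2 read 3.33, 3.39, 3.01 and 3.20 in OCI-LY10 and 3.76, 6.24, 5.68 and 7.68 in OCI-HBL1, where the Combo array was highest. No gene was called when only the 8 arrays of both lines were fitted (1070 with an unadjusted p below 0.05 in limma), nor without the OCI-LY10 IRAKi array (929). The count rose to 24 with no filter, 53 with trend and robust estimation and 124 with spike-in scaling. With 3 residual degrees of freedom, a gene outside these 14 was not shown to have an unchanged gap.

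**Figure D5:**
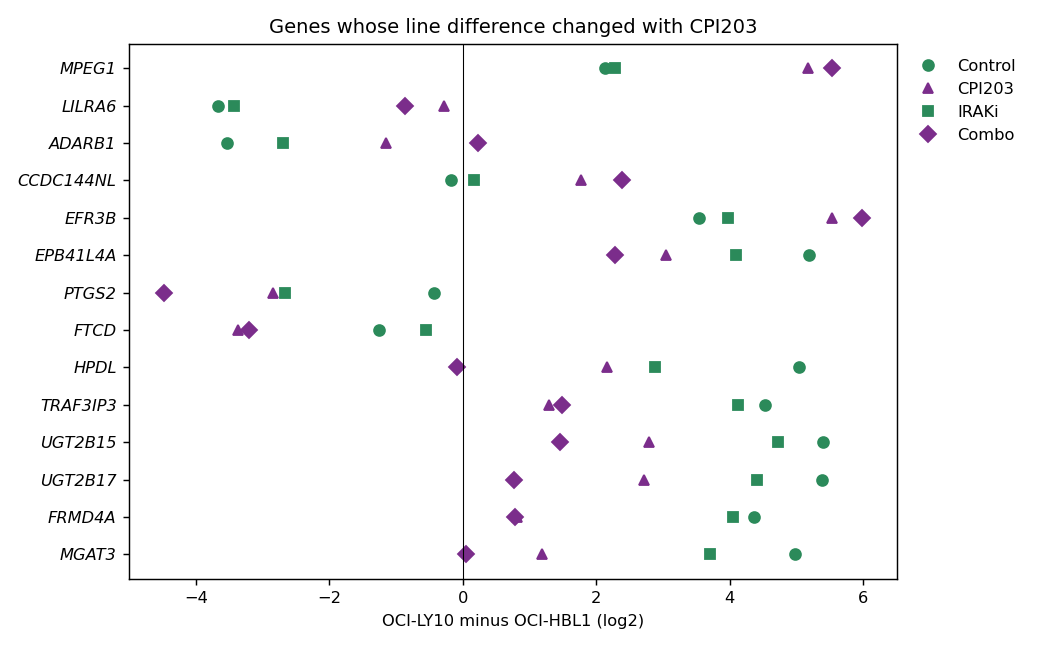
OCI-LY10 minus OCI-HBL1 difference in log2 level (x axis) in each of the 4 treatment pairs for the 14 genes whose gap changed with CPI203; colour separates pairs with CPI203 from pairs without. The gap of MGAT3 runs from 0.05 to 4.97 over the pairs, and that of MPEG1 from 2.12 to 5.54.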

How the data were processed

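Total RNA was extracted with Trizol, and biotin-labelled cRNA was made from 150 ng, per the labels' protocols. The deposited values are log2 levels that the authors made with RMA in Affymetrix Expression Console 1.1, per the submitters' processing notes. RMA removes background, makes the distributions of the arrays equal and combines each probe set's probes. Genome build and probe library were not given in the sources used here.

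Of 49386 probe sets, 45253 carried 1 gene and 1327 several, and only the first kind was used. Each gene was read from its probe set with the highest mean over 12 arrays, and was tested when at least 3 arrays read above 4.20, the 40th percentile. Of 17482 autosomal genes 12648 were tested, after 709 genes on X or Y and 48 with no chromosome in the reference were left out. Of the genes tested, 3912 had probe sets ending in x_at or s_at, whose probes can be shared between transcripts. The level of an array probe cannot be compared between genes.

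All 12 arrays were fitted with limma 3.58.1 in R 4.3.3 (lmFit, eBayes), with line and treatment as terms, leaving 6 residual degrees of freedom and 3.65 prior ones. The treatment term is the block that pairs the arrays, and this pairing comes from the treatment labels. Tests were two-sided, adjusted by Benjamini-Hochberg over the autosomal genes tested. Tables were handled with the data.table package (1.17.8). SE is the moderated standard error. The gap test added line by CPI203 and line by IRAKi terms, with 3 residual and 3.91 prior degrees of freedom. The number of arrays limits precision.

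Genes named are the 15 widest standing differences in each direction, up to 4 called members per list and direction, a fixed set of lymphoma genes, the 5 widest gap changes in each direction and members of the longest runs. The remaining gap calls and other genes were named after their values were seen. The members and lists were chosen with earlier results of these data known. Some genes of the fixed set are not reported here, and CDKN2B was below the filter. Gene order came from RefSeq genes on GRCh38.p14 and promoter windows from RefSeq, which covered 10283 of the genes tested. The alternatives tried were other choices of probe set, filter, scaling, model, block, threshold and arrays. The scripts were tested on simulated data.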

Additional observations from a re-analysis of the deposited data

Results flagged for a closer look

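In 390 groups of 4 arrays (195 named genes, each in both lines), 1 array stood apart from the other 3 by Dixon's test in 26 groups (6.67%), and chance alone marks about 1 in 20. These 4 arrays differ in treatment, so a single array is also a single treatment. Levels are log2. The OCI-LY10 Combo array stood apart for GPR183 8.93 (others 10.43 to 10.67), HLA-DMB 8.45 (others 9.84 to 10.10), MET 9.27 (others 9.60 to 9.63) and P2RX5 11.13 (others 11.81 to 11.94). The OCI-LY10 Control array stood apart for HLA-E 11.01 (others 11.39 to 11.43), IL6 5.71 (others 4.07 to 4.26), PEG10 5.34 (others 4.76 to 4.77) and PLAC8 12.06 (others 11.28 to 11.36). The OCI-LY10 IRAKi array stood apart for AKAP12 3.52 (others 3.78 to 3.83), B2M 13.54 (others 13.57 to 13.58), CD274 6.02 (others 6.41 to 6.45), CDH2 3.89 (others 4.15 to 4.21) and DDX60L 7.82 (others 7.17 to 7.27). The OCI-HBL1 CPI203 array stood apart for PNMA8A 3.97 (others 3.74 to 3.78). The OCI-HBL1 Combo array stood apart for CIITA 6.14 (others 6.67 to 6.75) and PSMB9 9.58 (others 9.37 to 9.41). The OCI-HBL1 Control array stood apart for BRD3 7.74 (others 8.11 to 8.14), CD86 9.46 (others 8.28 to 8.45), ENTPD1 9.63 (others 8.42 to 8.62), HLA-DQB1 8.63 (others 7.68 to 7.74), HLA-DRA 12.40 (others 12.29 to 12.30) and IGHM 13.89 (others 14.05 to 14.08). The OCI-HBL1 IRAKi array stood apart for ALDH2 5.54 (others 4.90 to 4.94), MPPE1 7.22 (others 6.56 to 6.63), VPS41 8.27 (others 7.88 to 7.93) and ZNF577 6.25 (others 7.17 to 7.18).

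The OCI-LY10 minus OCI-HBL1 gap differed between arrays with and without CPI203, by the interaction term in limma, for 14 genes. The changes in log2 gap were ADARB1 2.66, CCDC144NL 2.08, EFR3B 1.996, EPB41L4A -1.97, FRMD4A -3.41, FTCD -2.38, HPDL -2.92, LILRA6 2.97, MGAT3 -3.72, MPEG1 3.15, PTGS2 -2.11, TRAF3IP3 -2.93, UGT2B15 -2.94 and UGT2B17 -3.15. These calls were lost when OCI-LY3 or the OCI-LY10 IRAKi array was left out of the fit.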

How the results depend on the processing

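The counts of called genes (6168) and standing differences (1215) stayed within 1.5 times under other probe set averaging, filters, median centring, cyclic loess, trend and robust estimation, array weights and a fit of 8 arrays. Treated as a random replicate block, treatment gave 5986 called genes and 1215 standing differences, and with no replicate block 4467 and 1205. Leaving out arrays gave 5023 to 5800 called genes and 1320 to 1438 standing differences, the latter over 3 pairs. With every probe set on its own, 13889 probe sets were called and 2518 were standing, of 29489 tested. With a mean difference of at least 2-fold required beside the adjusted p, 2156 genes were called. Standing differences numbered 2445 with a least pair difference of 0.58 and 397 with 2. With poly-A spike-in scaling the counts were 5957 and 1408, with the shifted balance given above, and cyclic loess moved it the other way.

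The count of 14 genes whose gap changed with CPI203 was the least stable. It was 24 with no filter, 8 with the 60th percentile filter, 124 with poly-A spike-in scaling and 53 with trend and robust estimation. It was 0 with every probe set on its own (2616 with an unadjusted p below 0.05 in limma), 0 in the fit of 8 arrays (1070) and 0 without the OCI-LY10 IRAKi array (929), the only single array left out of this test.

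Genes that changed direction were not called in the 12-array fit. With poly-A spike-in scaling the differences were -0.18 for BCL2, -0.24 for BRD2, -0.12 for FOXP1, -0.023 for HEXIM1, -0.26 for MS4A1 and -0.21 for REL. BCL2 was at -0.057 with the mean of its probe sets, and NFKB2 at 0.033 with cyclic loess and 0.052 with array weights. With arrays left out the ranges were -0.67 to 0.21 for IRAK3, -0.23 to 0.083 for NFKB2, -0.062 to 0.132 for MS4A1 and -0.13 to 0.36 for REL. Over all named genes and settings, 56 comparisons lost a call and 12 gained one, and 4580 did neither nor changed direction. Of the 12 gains, TNFAIP3 had 7: with the mean of probe sets (-0.91, adjusted p = 0.0129 in limma), spike-in scaling (-0.95, 0.00172), the random block (-0.66, 0.0435), the fit of 8 arrays (-0.66, 0.0412), and without the Combo arrays of all lines (-0.89, 0.0408), of OCI-HBL1 (-0.84, 0.0384) or of OCI-LY10 (-0.83, 0.0388). IRAK3 was called without the Combo arrays of all lines (-0.67, 0.00948) and without that of OCI-LY10 (-0.59, 0.0228), IGHM in the fit of 8 arrays (-0.49, 0.00771), HEXIM1 with the mean of probe sets (0.51, 0.0388) and FOXP1 with trend and robust estimation (0.17, 0.0493). IRF4 and ERAP1 lost their calls with the mean of probe sets (0.21 and 0.04). With no replicate block, 9 named genes lost a call, among them MYD88 (adjusted p = 0.122 in limma), MYC (0.169), TNFRSF17 (0.151) and HLA-DMB (0.201). The causes were not tested.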
